A study of Mus musculus with 15 samples.

Results

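The 32 genes described here carry out DNA replication and S phase in mouse cells, and they were chosen by symbol: G1/S cyclins and E2F factors (6 genes), origin licensing and helicase genes (10), the clamp, its loader, the primase complex and lagging strand enzymes (10), deoxynucleotide supply (3), and chromatin copying and histone mRNA (3). All 32 were found among the 55984 gene symbols of the count table, and 31 of them were among the 17488 genes with enough counts to be tested. The exception was Fen1, the flap endonuclease that trims Okazaki fragments.

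RNA was sequenced from hepatocytes of WT C57BL/6JJcl adult male mice, untreated, isolated by collagenase perfusion, stained with a Hoechst DNA dye and sorted. The area of the Hoechst signal set the ploidy, giving 2n-whole and 4n-whole cells, and its height divided the 4n cells into 4n-top, enriched for mononucleated cells, and 4n-bottom, enriched for binucleated cells. The 4n-top gate still held many binucleated cells after its single sort, so 4n-top and 4n-bottom were enriched and not pure. Mice 1 to 4 each gave a 2n-whole, a 4n-whole and a 4n-bottom library, and mice 2, 3 and 4 gave a 4n-top library, 15 libraries in all. The 4n-top sample of mouse 1 was left out by the authors for its RNA quality. 2n cells were spun down after sorting with more force and for longer than 4n cells, so that step and ploidy cannot be told apart. Libraries held 22049498 to 42096421 counts, and 3 counts, the limit used here for detection, corresponded to 0.0693 to 0.120 counts per 1000000 (CPM, scaled between libraries by edgeR's TMM factors). These limits cover counting error only, and a count may not be a fragment, as described under processing.

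DNA replication is prepared in G1, when ORC, Cdc6 and Cdt1 load the Mcm2 to Mcm7 helicase onto origins, and it starts in S phase, when Cdc45 and the GINS complex turn that helicase on. Cyclin D and cyclin E kinases release E2F factors from Rb proteins, and E2F1 and its close relatives then switch on much of this gene set. E2F7 and E2F8 are atypical family members that repress the same targets, and in the mouse liver they are known for promoting polyploidy, with E2F1 acting in the opposite sense. Adult hepatocytes are mostly out of cycle, and a 4n hepatocyte has either a single 4n nucleus or a pair of 2n nuclei.

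Because E2F factors are the common regulators of these genes, the promoters were searched for the octamers TTTCCCGC, TTTCGCGC, TTTGCCGC and TTTGGCGC on both strands, from 250 bases before to 50 bases after the transcription start of the canonical transcript (GENCODE M39 on GRCm39, the build of the files). Where matches on opposite strands overlapped, each was counted. At least 1 match was present in 11 of the 32 promoters (34.4%), against 614 of 21770 protein-coding promoters (2.82%) and 22 of 89 promoters of other replication genes (24.7%). The promoters of Pola1 and Mcm5 are shown because each gene was called in a comparison below, and that of Mcm6, which was not called, because it held the most matches. Each line gives the 250 bases upstream of the start, in the direction of the gene, with the matches in capitals. Mcm5 lies at chr8:75835890-75836139 on the plus strand, Mcm6 at chr1:128287453-128287702 on the minus strand and Pola1 at chrX:92675814-92676063 on the minus strand.
Mcm5: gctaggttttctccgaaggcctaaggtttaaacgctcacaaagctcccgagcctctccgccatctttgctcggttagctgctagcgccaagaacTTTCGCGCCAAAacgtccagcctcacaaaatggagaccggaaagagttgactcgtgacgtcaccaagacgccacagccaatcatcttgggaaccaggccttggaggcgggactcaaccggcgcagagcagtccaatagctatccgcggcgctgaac
Mcm6: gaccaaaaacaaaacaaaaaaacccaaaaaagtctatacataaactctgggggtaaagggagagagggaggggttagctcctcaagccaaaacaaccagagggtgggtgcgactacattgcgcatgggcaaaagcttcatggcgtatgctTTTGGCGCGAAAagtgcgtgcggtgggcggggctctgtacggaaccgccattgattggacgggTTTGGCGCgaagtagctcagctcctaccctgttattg
Pola1: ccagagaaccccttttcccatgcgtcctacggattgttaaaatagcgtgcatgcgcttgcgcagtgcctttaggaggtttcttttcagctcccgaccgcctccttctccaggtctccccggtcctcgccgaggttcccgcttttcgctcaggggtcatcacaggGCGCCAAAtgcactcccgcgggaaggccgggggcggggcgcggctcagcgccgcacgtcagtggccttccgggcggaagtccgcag

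The Mcm5 match read TTTCGCGC on the strand of the gene and TTTGGCGC on the other, in an overlap of both. Mcm6 held the same kind of overlapping match and a further TTTGGCGC closer to its start, 3 matches in all. E2f8 and Pola1 each held a single match on the strand opposite to the gene. The other promoters with a match were those of E2f1, E2f7, Cdc6, Cdt1, Mcm3, Mcm4 and Rfc3. No match was found in the promoter windows of the remaining 21 genes, Lig1, Ccnd1 and Mcm7 among them. A match is a description of letters and not of binding.

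**Figure D1:**
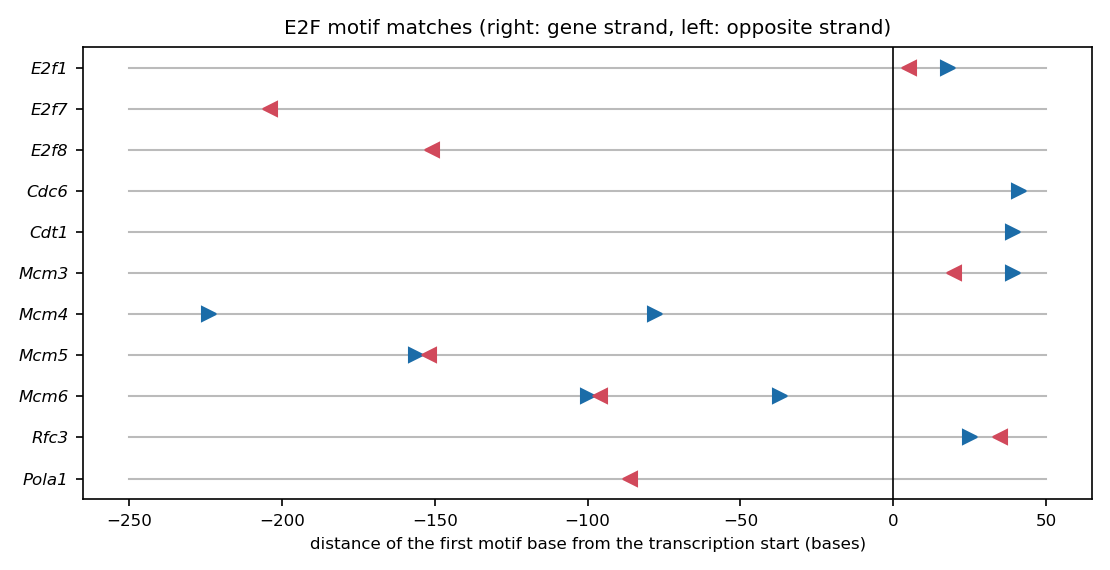
Positions of the E2F octamer matches in the 11 promoters that held any, as the distance of the first motif base from the transcription start in bases. Triangles to the right mark the strand of the gene and triangles to the left the opposite strand, and Mcm6 shows the most, with 3.

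Transcripts of all these genes were scarce. The mean over the 15 libraries ranged from 0.122 CPM for Fen1 to 15.9 CPM for Mcm7, with a median of 3.02 CPM over the 32 genes, while the summed level of 7 hepatocyte markers was 76178 to 106598 CPM in every library. Means lay under 1 CPM for 8 genes, and 7 of these (Ccne1, Ccne2, E2f7, Cdc6, Gins2, Fen1 and Uhrf1) had at least 1 library at 0 counts. Counted per kilobase of exon, so that genes of different length can be ordered, Mcm7 led with 2.83 CPM per kb, followed by the sliding clamp Pcna (2.14), the clamp loader subunit Rfc2 (1.58) and Slbp, which binds the stem-loop of histone mRNAs (1.32). E2f7 (0.0308), Cdc6 (0.0324) and Fen1 (0.0378 CPM per kb) closed the order. The length used was that of all annotated exons of a gene together, whichever transcripts were present, so values per kb are approximate. The Mcm2 to Mcm7 proteins form a ring of 1 copy each, but the RNA levels were unequal, from 2.83 CPM per kb for Mcm7 down to 0.353 for Mcm5. In its 15 libraries Mcm7 lay between 10.1 and 20.2 CPM, and its gene carries 3 microRNA genes (Mir106b, Mir25, Mir93) on its own strand and overlaps Ap4m1 and Cops6 on the other. In all, 19 of the 32 genes are overlapped on the other strand by another annotated gene. For Rfc4 this includes Eif4a2, for Fen1 Tmem258 and for Gins2 Gse1. The strand setting of the counting and its treatment of overlaps are not given in the sources used here. If strand was ignored, reads in an overlap may have been added to the named gene or left out of it. The levels of such genes, the low ones of Fen1 and Gins2 among them, are therefore uncertain. Pcna and Tyms also have annotated pseudogene copies that could share reads, which makes their levels uncertain.

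**Figure D2:**
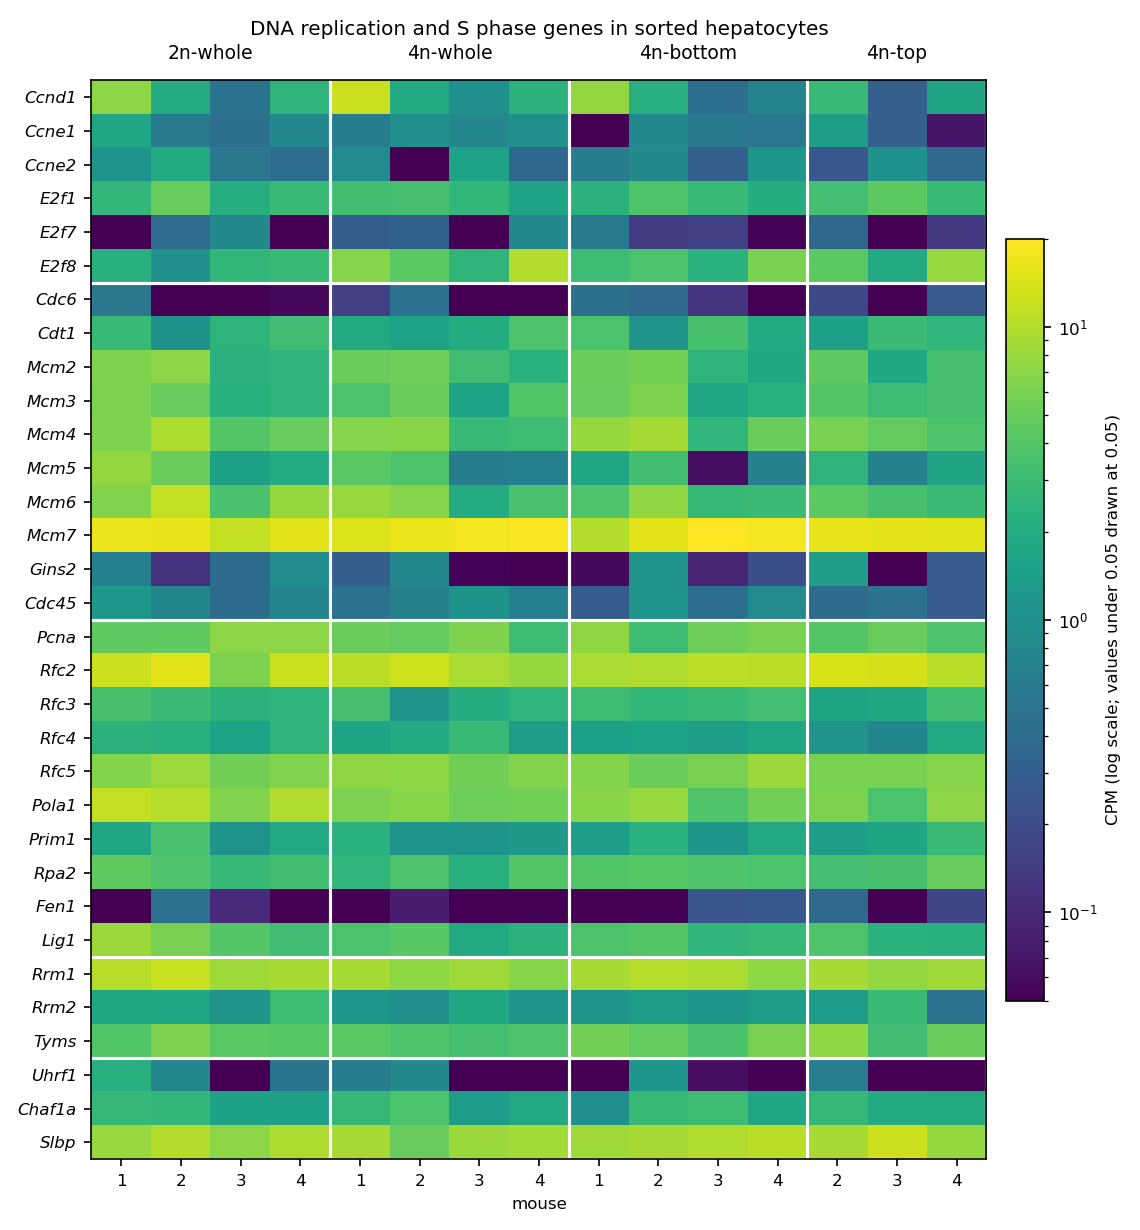
Level of each of the 32 genes (rows, in 5 role groups divided by white lines) in each of the 15 libraries (columns, by population and mouse), as CPM on a log colour scale with values under 0.05 drawn at 0.05. Mcm7, Rfc2, Rrm1 and Slbp are bright in every library, while Cdc6, Fen1, E2f7 and Uhrf1 are dark in most.

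The first comparison, 4n-whole against 2n-whole, asks what differs with ploidy. CPM gives a share of each library's RNA, and RNA per cell was not measured, here or in the comparisons below. As such shares, E2f8 rose and Pola1 fell in 4n-whole cells, and the other 29 tested genes did not pass the test. This was 2 of 31 genes, 6.45%, where 607 of all 17488 genes tested (3.47%) passed the same rule of an adjusted p under 0.05 and a log2 fold change beyond 0.5 in edgeR's quasi-likelihood test with the mouse as a block. By direction, 1.74% of all genes were called higher and 1.73% lower.

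E2f8, the atypical E2F repressor, measured 2.22, 1.03, 2.64 and 2.82 CPM in the 2n-whole cells of mice 1, 2, 3 and 4. In their 4n-whole cells it measured 6.77, 4.37, 2.50 and 10.1 CPM. The 4n-whole library was the higher in mice 1, 2 and 4, by 3.05, 4.26 and 3.59 times, and in mouse 3 the levels were about equal, with a ratio of 0.948, so that the groups overlapped. The log2 fold change was 1.30 (SE 0.31, edgeR adjusted p = 0.0136), and the group means were 2.18 ± 0.807 and 5.94 ± 3.29 CPM (SD, n = 4 each). Leaving out mouse 3 moved it to 1.81 (edgeR adjusted p = 4.0e-05), whereas without mouse 1 it was 1.17 (edgeR adjusted p = 0.059) and without mouse 4 it was 1.09 (edgeR adjusted p = 0.216). Without the block on mouse the log2 fold change of E2f8 was 1.45 and the edgeR adjusted p was 0.235, and over the 9 alternative settings the adjusted p ranged from 4.0e-05 to 0.235.

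Pola1, the catalytic subunit of the primase-polymerase that begins each new strand, measured 11.41, 10.38, 6.47 and 9.71 CPM in 2n-whole cells of mice 1 to 4. In 4n-whole cells it measured 6.18, 6.86, 5.28 and 5.56 CPM. It was lower in the 4n-whole cells of all 4 mice, although the highest 4n-whole library lay above the lowest 2n-whole library. The log2 fold change was -0.64 (SE 0.19, edgeR adjusted p = 0.0449), from 9.49 ± 2.13 to 5.97 ± 0.701 CPM (SD, n = 4 each). The call was lost without mouse 1, 2 or 4, with edgeR adjusted p of 0.136, 0.14 and 0.293, without the block (0.313) and without the filter on low counts (0.0833), and it was kept without mouse 3 (0.0233). The log2 fold change of Pola1 stayed between -0.76 and -0.56 over the 9 alternative settings, whose adjusted p ranged from 0.00416 to 0.313.

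Lig1, the ligase that seals Okazaki fragments, was next by p-value. It measured 8.21, 5.79, 4.03 and 3.19 CPM in 2n-whole cells and 3.63, 4.25, 1.92 and 2.34 CPM in 4n-whole cells of mice 1 to 4. All 4 mice had less of it in 4n-whole cells, the groups overlapped, and the log2 fold change was -0.80 (SE 0.25) with an edgeR adjusted p of 0.0544, just outside the threshold. DESeq2 with the block gave an adjusted p of 0.0254 and ComBat-seq followed by DESeq2 gave 0.00232, while the range over the 9 alternative settings was 0.00232 to 0.365. The helicase genes Mcm5 (log2 fold change -0.97, SE 0.40) and Mcm6 (-0.57, SE 0.26) had edgeR adjusted p of 0.162 and 0.22.

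**Figure D3:**
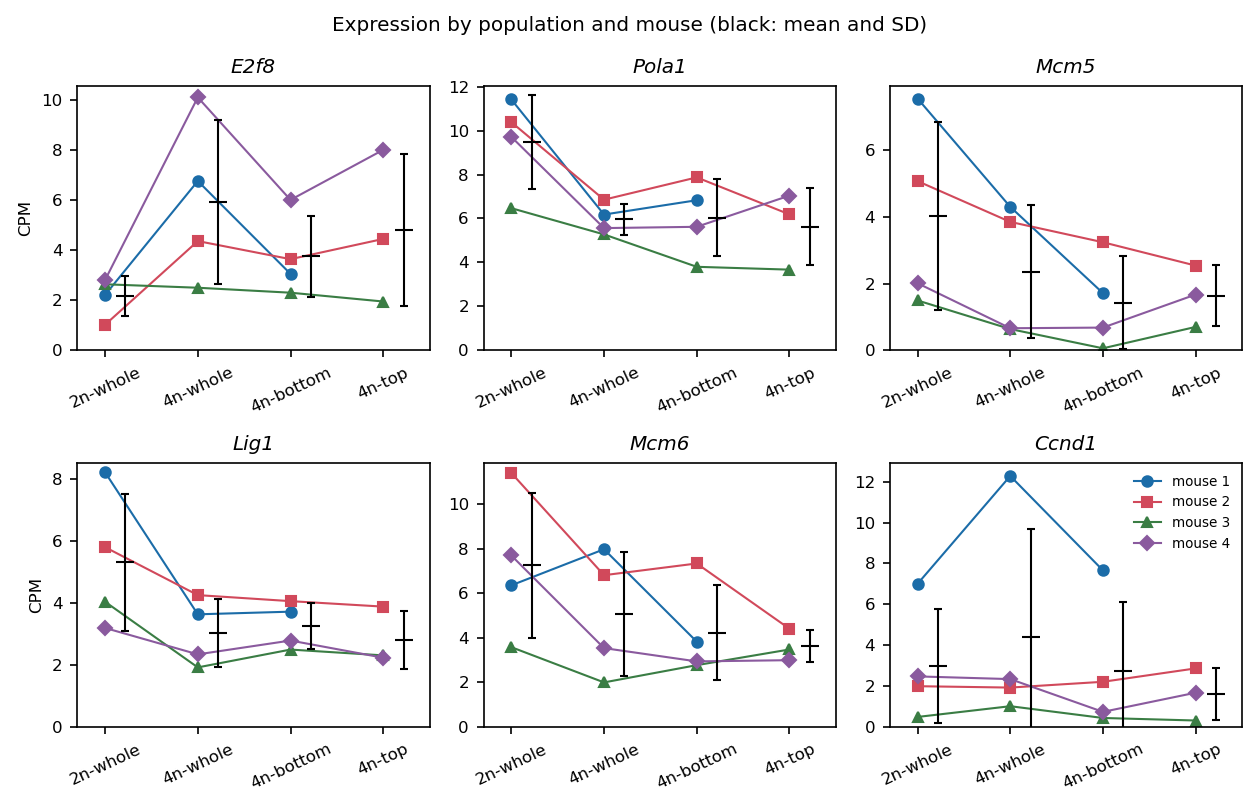
CPM of E2f8, Pola1, Mcm5, Lig1, Mcm6 and Ccnd1 by population, with a line per mouse and, in black, the mean and SD of each population (n = 4, and 3 for 4n-top; SD bars that reach below 0 are cut off at 0). E2f8 is higher in 4n-whole than in 2n-whole cells in mice 1, 2 and 4 and level in mouse 3, and Pola1 is lower in all 4 mice.

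The other genes of the G1/S switch did not pass the test between 4n-whole and 2n-whole cells. E2f7, the partner of E2f8, was too scarce to compare: its counts in mice 1 to 4 were 1, 14, 24 and 0 in 2n-whole and 12, 8, 0 and 26 in 4n-whole cells, and its log2 fold change was 0.15 with an SE of 1.92. E2f1, the activating E2F, was at 3.14 ± 1.27 CPM in 2n-whole and 2.73 ± 0.851 CPM in 4n-whole cells (SD, n = 4 each; log2 fold change -0.20, 95% interval -0.80 to 0.41, edgeR adjusted p = 0.78). Ccnd1, the gene of cyclin D1, measured 7.00, 1.99, 0.487 and 2.47 CPM in 2n-whole cells and 12.3, 1.92, 1.01 and 2.34 CPM in 4n-whole cells of mice 1 to 4. Mouse 1 was high in both populations and mouse 3 low in both, and the log2 fold change was 0.43 (SE 0.34, edgeR adjusted p = 0.532). The cyclin E genes Ccne1 (-0.14, SE 0.82) and Ccne2 (-0.69, SE 0.86) had intervals that ran from -1.82 to 1.53 and from -2.45 to 1.07 on the log2 scale.

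By role, the median log2 fold change of 4n-whole against 2n-whole was 0.01 for the 6 cyclin and E2F genes, -0.14 for the 10 licensing and helicase genes, -0.31 for the 9 tested genes of the clamp, primase and lagging strand group, -0.34 for the 3 genes of deoxynucleotide supply and -0.18 for the 3 of chromatin copying. Over the 31 tested genes the median was -0.19, against -0.01 for all genes tested, and 23 of 31 (74.2%) had a log2 fold change below 0, against 50.7% of all genes. The median size of the log2 fold change, regardless of sign, was 0.268 against 0.296 for all genes. At an unadjusted edgeR p under 0.05 there were 5 genes (E2f8 higher, Lig1, Mcm5, Mcm6 and Pola1 lower), 16.1% of those tested, against 20.4% of all genes, and no gene of the 31 had groups that did not overlap, against 5.8% of all genes. Members with wide error included Uhrf1, which guides copying of DNA methylation (log2 fold change -2.29, SE 1.24), and Gins2 (-1.90, SE 1.08), whose 4n-whole counts were 12, 20, 2 and 1. Among the steadier genes, Mcm7 was at 14.9 ± 2.38 CPM in 2n-whole and 17.0 ± 1.94 CPM in 4n-whole cells (SD, n = 4 each), with a 95% interval of the log2 fold change from -0.17 to 0.50.

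**Figure D4:**
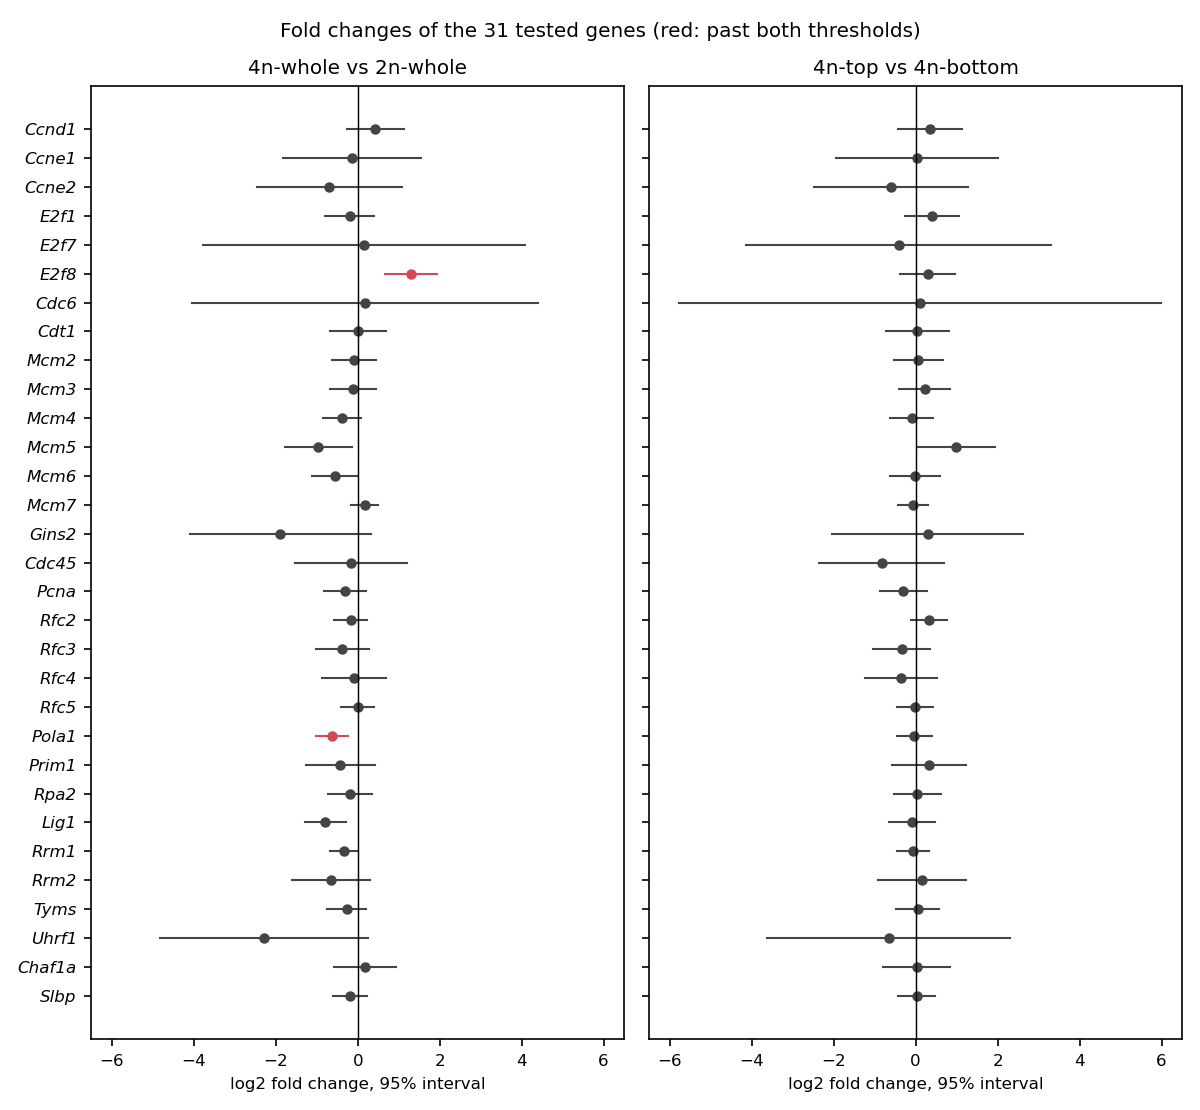
Log2 fold changes with 95% intervals for the 31 tested genes in 4n-whole against 2n-whole cells (left) and 4n-top against 4n-bottom cells (right). Red marks E2f8 and Pola1, the genes past both thresholds on the left, and no gene is red on the right, where Mcm5 lies highest at 0.99.

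Some markers of other cell types differed between these groups, and the marker sums are given beside the result. edgeR called Sox9 and Spp1 of the cholangiocyte markers and Ptprb of the endothelial markers, all lower in 4n-whole cells. It called 0 of the Kupffer cell markers and 0 of the stellate cell markers. The summed level of 6 cholangiocyte markers was 54.7 to 67.9 CPM in 2n-whole and 28.4 to 52.1 CPM in 4n-whole cells. The sum of 4 of them, Krt7, Krt19, Epcam and Spp1, was 8.78 to 15.1 CPM in 2n-whole and 1.203 to 2.05 CPM in 4n-whole cells, with 1 of the 4 at 0 in all 4n-whole libraries. Sums over 8 genes each were 0.764 to 8.33 against 1.08 to 2.97 CPM for Kupffer cell markers (2 of 8 at 0 in all 4n-whole libraries), 18.8 to 31.1 against 4.46 to 36.3 CPM for endothelial markers, and 3.67 to 5.84 against 2.75 to 3.96 CPM for stellate cell markers. Those of lymphocytes and neutrophils stayed at or under 1.32 and 0.561 CPM in all 15 libraries. The sum of 8 pericentral zonation genes was 469 to 763 CPM in 2n-whole and 760 to 2689 CPM in 4n-whole cells. Of 8 periportal genes, 7 were lower in 4n-whole cells at an unadjusted edgeR p under 0.05, and 3 were called. The periportal sum was 9810 to 13464 CPM in 2n-whole and 8406 to 10916 CPM in 4n-whole cells. The part of any of these in the values of E2f8, Pola1 and Lig1 was not tested. In bulk RNA of this kind, fewer cells of a type and less RNA per cell cannot be told apart.

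4n-bottom against 2n-whole compares the gate enriched for binucleated cells with 2n cells, and it shares the 2n-whole libraries with the comparison above. A single gene passed, Mcm5, a subunit of the helicase ring, where 81 of 17488 genes (0.463%) did so over the whole table. Mcm5 measured 7.54, 5.07, 1.495 and 2.01 CPM in 2n-whole cells of mice 1 to 4 and 1.71, 3.24, 0.0623 and 0.683 CPM in 4n-bottom cells. It was lower in 4n-bottom cells of every mouse, the groups overlapped, and the 4n-bottom library of mouse 3 held 2 counts, under the detection limit. The log2 fold change was -1.77 (SE 0.41, edgeR adjusted p = 0.0466), from 4.03 ± 2.82 to 1.42 ± 1.39 CPM (SD, n = 4 each). Without mouse 2 it was -2.35 (edgeR adjusted p = 0.00313). The call was lost without mouse 1 (-1.67, 0.262), mouse 3 (-1.38, 0.115) or mouse 4 (-1.84, 0.0633), and without the block (0.999), and the adjusted p over the 9 alternative settings ranged from 0.00123 to 0.999.

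Some markers of other cell types differed between 4n-bottom and 2n-whole cells as well. The sum of Krt7, Krt19, Epcam and Spp1 was 0.592 to 5.67 CPM in 4n-bottom cells, below the 8.78 to 15.1 CPM of 2n-whole cells, and Epcam was at 0 in all 4n-bottom libraries. Of these, Spp1 fell by 1.90 on the log2 scale (SE 0.36, edgeR adjusted p = 0.0072). The sum of 8 endothelial markers was 4.86 to 31.02 CPM against 18.8 to 31.1 CPM in 2n-whole cells, and 4 of the 8 were lower at an unadjusted edgeR p under 0.05, none of them called. Sums were 0.249 to 3.77 against 0.764 to 8.33 CPM for Kupffer cell markers, 2.84 to 5.32 against 3.67 to 5.84 CPM for stellate cell markers and 1.15 to 7.56 against 2.43 to 6.64 CPM for 10 proliferation markers. Of the 8 pericentral genes 5 rose (Cyp1a2, Cyp2e1, Glul, Oat and Slc1a2), and the sum of all 8 was 754 to 1933 CPM against 469 to 763 CPM. Of 8 periportal genes, 2 were lower in 4n-bottom cells at an unadjusted edgeR p under 0.05, and 1 was called. The part of these in the values of Mcm5 was not tested.

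E2f8 in 4n-bottom cells measured 3.06, 3.65, 2.31 and 6.02 CPM in mice 1 to 4, higher than in the 2n-whole cells of mice 1, 2 and 4 but not of mouse 3. Its log2 fold change was 0.71 (SE 0.31, edgeR adjusted p = 0.426), and it was 0.38 without mouse 2 and 1.11 without mouse 3, with edgeR adjusted p of 0.77 and 0.088. Pola1 in 4n-bottom cells measured 6.83, 7.87, 3.802 and 5.62 CPM, below the 2n-whole cells of each mouse, with a log2 fold change of -0.67 (SE 0.19, edgeR adjusted p = 0.15). Over the 9 alternative settings the adjusted p of Pola1 ranged from 0.00371, after ComBat-seq and DESeq2, to 0.92, without the block. Mcm6 measured 6.36, 11.41, 3.58 and 7.70 CPM in 2n-whole and 3.83, 7.34, 2.77 and 2.94 CPM in 4n-bottom cells, lower in all 4 mice, with a log2 fold change of -0.79 (SE 0.26, edgeR adjusted p = 0.256). At an unadjusted edgeR p under 0.05 there were 5 of 31 genes (16.1%), E2f8 higher and Lig1, Mcm5, Mcm6 and Pola1 lower, against 10.2% of all genes. The median log2 fold change was -0.17 against 0.00 for all genes, and 22 of 31 genes lay below 0, against 49.3% of all. Ccnd1 (-0.37, SE 0.34), E2f1 (-0.17, SE 0.29), Ccne1 (-1.10, SE 0.89), Ccne2 (-0.38, SE 0.81) and E2f7 (-0.63, SE 1.69) had intervals that spanned 0.

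4n-top against 2n-whole had 3 mice with both libraries. No gene of the 31 passed in edgeR, where 168 of 17488 genes (0.961%) did. At an unadjusted edgeR p under 0.05 there were 4 genes, against 11.3% of all genes. DESeq2 with the block called 1 gene, Pola1, and ComBat-seq followed by DESeq2 called Lig1 and Pola1. Pola1 measured 6.19, 3.67 and 7.04 CPM in the 4n-top cells of mice 2, 3 and 4, each below the 2n-whole cells of the same mouse, and its log2 fold change was -0.70 (SE 0.21, edgeR adjusted p = 0.134). E2f8 measured 4.46, 1.95 and 8.02 CPM in the same libraries, higher than in 2n-whole cells for mice 2 and 4 and lower for mouse 3. Its log2 fold change was 1.00 (SE 0.34, edgeR adjusted p = 0.213), and without mouse 3 it was 1.62 and passed (edgeR adjusted p = 0.00382). Without mouse 2 it was 0.60 (edgeR adjusted p = 0.643) and without mouse 4 it was 0.76 (edgeR adjusted p = 0.879), the last of these being the highest adjusted p over the 9 alternative settings and the value without mouse 3 the lowest. Mcm6 was at 3.63 ± 0.718 CPM in 4n-top (SD, n = 3) and 7.26 ± 3.25 CPM in 2n-whole cells (SD, n = 4), with a log2 fold change of -0.82 (SE 0.30, edgeR adjusted p = 0.254). The ratio of Mcm6 in 4n-top to 2n-whole cells was 0.387, 0.971 and 0.389 in mice 2, 3 and 4, so mouse 3 was about level. The remaining genes of the G1/S switch, Ccnd1 (-0.03, SE 0.37), Ccne1 (-1.07, SE 1.01), Ccne2 (-0.98, SE 0.94), E2f1 (0.23, SE 0.32) and E2f7 (-1.05, SE 1.82), had intervals that spanned 0. The median over the 31 genes was -0.18, against 0.00 for all genes, and 20 of 31 lay below 0, against 50% of all. None of the 31 had groups that did not overlap in this comparison or in that of 4n-bottom with 2n-whole cells, against 9.21% and 3.52% of all genes. In 4n-top cells the sum of Krt7, Krt19, Epcam and Spp1 was 0.976 to 1.501 CPM, with 3 of the 4 at 0 throughout. That of the 8 endothelial markers was 5.23 to 21.7 CPM and that of the pericentral genes 746 to 2952 CPM. Of 8 periportal genes, 5 were lower than in 2n-whole cells at an unadjusted edgeR p under 0.05, and 2 were called. The part of all these in the values of E2f8 and Pola1 was not tested.

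4n-top against 4n-bottom compares cells of equal DNA content that differ in the share of mononucleated cells. In edgeR 0 of 31 genes were called, as were 2 of 17488 genes (0.0114%). At an unadjusted edgeR p under 0.05 there was 1 gene of the list, Mcm5, against 2.79% of all genes, and both DESeq2 fits also called 0 of the list. Mcm5 measured 2.54, 0.703 and 1.67 CPM in the 4n-top cells of mice 2, 3 and 4, and 3.24, 0.0623 and 0.683 CPM in their 4n-bottom cells. The 4n-top library was the higher in mice 3 and 4 and the lower in mouse 2, and the log2 fold change was 0.99 (SE 0.46, edgeR adjusted p = 1). Without the block on mouse it was 0.21. Zonation genes differed between these gates as well. Of 8 periportal genes, 4 were lower in 4n-top cells at an unadjusted edgeR p under 0.05, none of them called. Of 8 pericentral genes, 2 were higher and 2 lower at that p, and 1 was called, lower in 4n-top cells. The pericentral sum was 746 to 2952 CPM in 4n-top and 754 to 1933 CPM in 4n-bottom cells. The part of these in the values of Mcm5 was not tested.

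For the genes measured well, the intervals give the size of difference between the 4n gates that these data leave possible. E2f8 had a log2 fold change of 0.29 with a 95% interval from -0.38 to 0.97, E2f1 of 0.41 from -0.25 to 1.07, Pola1 of -0.03 from -0.47 to 0.40, and Mcm7 of -0.07 from -0.44 to 0.30. Rfc2, the loader subunit, was at 12.7 ± 1.91 CPM in 4n-top (SD, n = 3) and 10.2 ± 0.767 CPM in 4n-bottom cells (SD, n = 4), with a log2 fold change of 0.32 from -0.12 to 0.75. Ccnd1 was at 0.35 from -0.44 to 1.14. Ccne1 (0.03, SE 0.96), Ccne2 (-0.60, SE 0.91) and E2f7 (-0.42, SE 1.81) had too few counts for a narrower statement. The median over the 31 genes was 0.03, with 14 of them below 0, against 49.8% of all genes. None had groups that did not overlap, against 3.15% of all genes, and the median size regardless of sign was 0.155, against 0.173 for all genes.

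Around these genes stand 89 other replication genes in 5 lists, of which 83 were tested. In 4n-whole against 2n-whole cells edgeR called 1 of the 83, where 3.47% of all genes were called. Mcm10, a helicase activator, was at 26.5 ± 8.62 CPM in 2n-whole and 35.1 ± 9.08 CPM in 4n-whole cells (SD, n = 4 each), higher in 4n-whole cells of all 4 mice. Its log2 fold change of 0.42 (SE 0.12, edgeR adjusted p = 0.0321) was under the fold threshold. Chtf18, part of an alternative clamp loader, had 0 counts in every 2n-whole library and 1, 12, 10 and 8 counts in the 4n-whole libraries of mice 1 to 4 (edgeR adjusted p = 0.0874, in a range of 0.000442 to 0.434 over the 9 alternative settings). It passed with DESeq2 and the block (adjusted p = 0.0346) and after ComBat-seq and DESeq2 (adjusted p = 0.000442), and it overlaps Gng13 and Rpusd1. In the lists of G1/S control and chromatin copying the smallest p belonged to E2f4 (log2 fold change 0.28, SE 0.13, edgeR adjusted p = 0.201) and Rbbp4 (-0.19, SE 0.10, edgeR adjusted p = 0.309). At an unadjusted edgeR p under 0.05, 3 of the 83 were higher and 6 lower in 4n-whole cells. In the other comparisons edgeR called 0 of the 83, with 3 higher and 4 lower at that unadjusted p in 4n-bottom against 2n-whole cells, 4 higher and 3 lower in 4n-top against 2n-whole cells, and 1 each way between the 4n gates. The lowest p in the latter belonged to Gmnn, the inhibitor of Cdt1, whose log2 fold change was 1.05 (SE 0.39, edgeR adjusted p = 1).

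The mouse was the larger source of spread for many of the 32 genes. On log2 CPM, the share of the sum of squares taken by mouse after population had a median of 36.2% over the 31 tested genes, and that taken by population after mouse 14.37%. The medians were 31.9% and 18.1% over all genes tested. More was taken by mouse than by population in 24 of 31 genes (77.4%) and in 65.4% of all genes. The genes with the largest share between mice were Ccnd1 (83.4%), Mcm2 (80.8%), Mcm3 (76.9%), Mcm4 (74.2%), Cdt1 (68.0%) and Mcm5 (63.0%). For Pola1 the shares were about equal, 41.8% for mouse and 43.97% for population, and for E2f8 they were 39.7% and 37.6%. These shares are a description of 15 libraries from 4 mice, with no test.

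Mcm2 ranged from 5.03 to 6.26 CPM over the libraries of mouse 1, from 4.59 to 7.06 in mouse 2, from 1.76 to 3.17 in mouse 3 and from 1.79 to 3.42 CPM in mouse 4. The lowest library of mice 1 and 2 was thus above the highest of mice 3 and 4, whatever the sorted population. Ccnd1 lay at 7.00 to 12.3 CPM in mouse 1, 1.92 to 2.86 in mouse 2, 0.313 to 1.01 in mouse 3 and 0.736 to 2.47 CPM in mouse 4, so that mouse 1 stood above all others and mouse 3 below most. Uhrf1 had 88, 24 and 0 counts in mouse 1 (2n-whole, 4n-whole, 4n-bottom) and 27, 21, 48 and 28 in mouse 2 (the same and 4n-top), but 0, 0, 2 and 0 in mouse 3 and 18, 0, 0 and 0 in mouse 4. Cdt1 went another way, with 1.09 to 1.60 CPM in mouse 2 and at least 1.91 CPM in every library of the others. Mcm7 did not separate the mice, at 10.1 to 16.6, 15.5 to 16.6, 11.5 to 20.2 and 14.9 to 19.0 CPM in mice 1 to 4.

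Values that moved with the mouse are given beside this spread. Mki67, a marker of cycling cells, was at 2.32 to 2.51 CPM in mouse 1, 1.68 to 5.45 in mouse 2, 0 to 0.16 in mouse 3 and 0.0575 to 0.379 CPM in mouse 4. The sum of 10 proliferation markers was 4.45 to 6.41, 6.64 to 9.30, 1.15 to 2.66 and 1.44 to 4.05 CPM in mice 1 to 4. The sum of 8 endothelial markers in the 4n libraries was 19.7 to 24.5 CPM in mouse 1, 21.7 to 36.3 in mouse 2, 4.86 to 7.85 in mouse 3 and 4.46 to 5.25 CPM in mouse 4, and none of the 8 was at 0 throughout a population. In 2n-whole cells the endothelial sum was 18.8 to 31.1 CPM over the 4 mice. The part of these cells in the levels of Mcm2, Ccnd1 and Uhrf1 was not tested. The paper gives a range of ages for its mice, and the sample titles do not give the age of each. Differences of age or liver preparation cannot be told apart from the mouse.

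**Figure D5:**
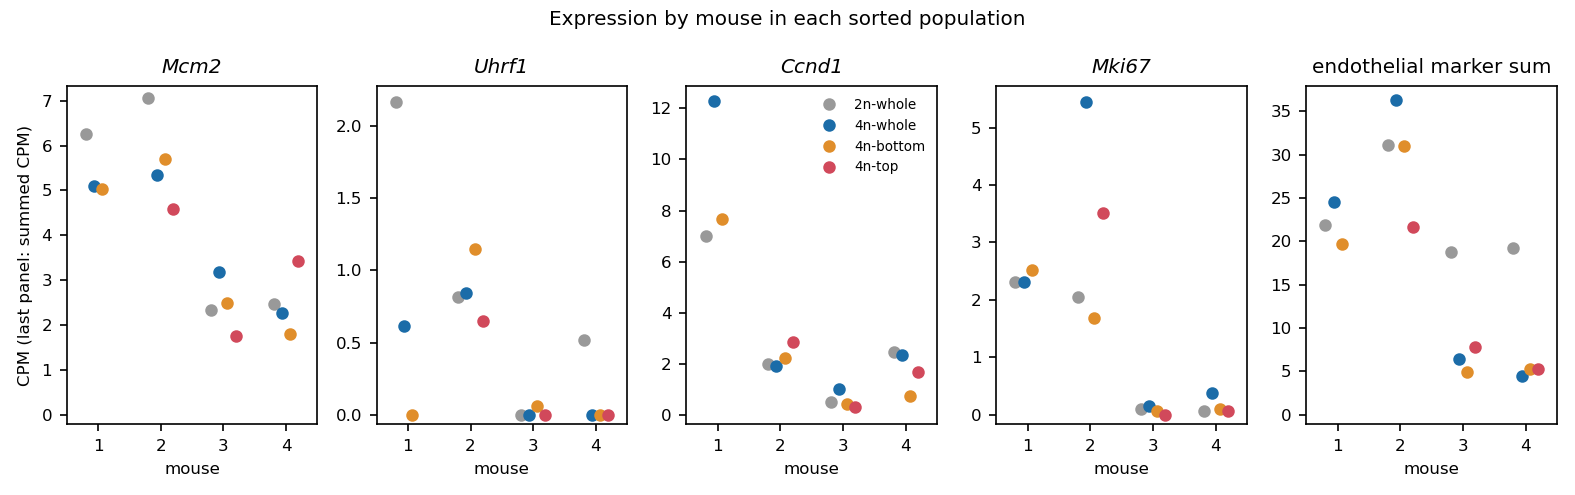
CPM of Mcm2, Uhrf1, Ccnd1 and Mki67 and the summed CPM of 8 endothelial markers in every library, by mouse, with a colour for each sorted population. Mcm2 is at 4.59 CPM or more in each library of mice 1 and 2 and at 3.42 CPM or less in each library of mice 3 and 4.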

How the data were processed

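The deposited values were raw counts per gene symbol, which the authors made by aligning the reads to GRCm39 with STAR (2.7.11a in the submitters' processing notes) and counting with featureCounts, before any batch adjustment. The libraries came from the SMART-Seq Stranded Kit. The annotation, strand setting and handling of read pairs are not given in the sources used here. Between 74.2% and 81.4% of counts from 1 to 10 were even in each library, so a count may not be a fragment.

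From these counts, genes were filtered with filterByExpr (31.2% of symbols tested) and fitted with edgeR 4.0.16 in R 4.3.3 (TMM, population plus mouse, quasi-likelihood test, Benjamini-Hochberg adjustment over 17488 genes). All 15 libraries entered each fit. Intervals were derived from the fold change and its F statistic and are approximate. A gene was called at an adjusted p under 0.05 and a log2 fold change beyond 0.5. The edgeR fit was tested on simulated counts. Per comparison it called 13 to 18 of 50 genes changed 1.5 times, 28 to 32 of 50 changed 2 times, and 2 to 11 unchanged genes. The changed genes were drawn from all tested genes, with mouse effects of the same spread for each. These counts therefore do not give the chance of finding a change in the genes described here.

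Mice pair the libraries: the labels number the subject, and the study treats individual mice as batches. Residuals of same-mouse libraries correlated at 0.0845 to 0.206 over 14 pairs. Within a population each library comes from a different mouse, so spread between its samples includes animals.

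Alternatives were no block, DESeq2 1.42.0 with the block, ComBat-seq (sva 3.50.0) followed by DESeq2, keeping genes of low count, size factors of DESeq2 within edgeR, and leaving out each mouse. The genes and lists were chosen with earlier results of these data known. Named in each comparison are the called genes, the 6 cyclin and E2F genes and the 3 smallest p-values, and for each list of other replication genes the called gene or the smallest p, except that some results are not reported here. Promoters, exon lengths and overlaps came from GENCODE M39. Other genes given with values (such as Mcm2, Mcm7, Uhrf1, Gins2, Cdt1, Gmnn and Mki67) were chosen after their values were seen.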

Additional observations from a re-analysis of the deposited data

Results flagged for a closer look

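Among 114 groups of 4 libraries checked for a library far from the rest, 6 (5.26%) stood out. The rule flags about 1 in 20 for independent values from a normal distribution. The CPM values here, some near the detection limit and some sums of others, need not follow that. In 4n-whole cells of mouse 1, Ccnd1 was at 12.3 CPM, where the next library of that population had 2.34, and Prim1 was at 2.32 CPM, next to 1.26. In 4n-bottom cells of mouse 2, Gins2 was at 1.10 CPM, next to 0.21, and Uhrf1 at 1.15 CPM, next to 0.0623. Cdc6 was at 0.542 CPM in 2n-whole cells of mouse 1, next to 0.0575. The summed level of Uhrf1, Chaf1a and Slbp was lowest in 4n-bottom cells of mouse 1, at 9.57 CPM, where the next lowest library had 12.5. Of the 6, 4 were libraries of mouse 1 and 2 of mouse 2.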

How the results depend on the processing

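Of 342 alternative values for the 38 named results, 300 kept their direction and their side of the threshold, 15 lost a call, 8 gained one and 19 changed sign. The losses were 3 of E2f8, 5 of Pola1, 4 of Mcm5 and 3 of the called gene among the other replication genes (without the block, mouse 2 or mouse 4). The gains were 1 of E2f8, 3 of Pola1, 2 of Lig1 and 2 of Chtf18, the last under both DESeq2 fits. Without the replicate block, 0 genes of the list were called in 4n-whole against 2n-whole and 0 in 4n-bottom against 2n-whole cells, and the calls over all genes came to 40, 0 (4n-bottom against 2n-whole), 2 (4n-top against 2n-whole) and 0 (between the 4n gates). With the block the calls over all genes were 607, 81, 168 and 2 in the same order. Among the named results, the block changed only the calls of E2f8, Pola1, Mcm5 and the called gene among the other replication genes. DESeq2 with the block called 49 genes of the whole table between the 4n gates, 143 in 4n-bottom and 329 in 4n-top against 2n-whole cells, and 1 gene of the list in the last. ComBat-seq followed by DESeq2 called 1160 genes in 4n-whole, 275 in 4n-bottom and 538 in 4n-top against 2n-whole cells and 18 between the 4n gates, with 2 genes of the list in 4n-bottom and 2 in 4n-top against 2n-whole cells. It moved the median of all genes to -0.16, -0.12 and -0.18 in the 3 comparisons with 2n-whole cells. Without the filter on low counts, 1 gene of the list remained called in 4n-whole against 2n-whole cells, and the counts over all genes were 25 between the 4n gates, 145 in 4n-bottom and 261 in 4n-top against 2n-whole cells. The cause of these changes was not tested.

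Leaving out each mouse gave 0 to 2 called genes of the list and 244 to 1025 of all genes in 4n-whole against 2n-whole cells, fewest without mouse 4 and most without mouse 3 for all genes. The ranges were 0 to 1 and 49 to 111 in 4n-bottom against 2n-whole, 0 to 1 and 98 to 238 in 4n-top against 2n-whole, and 0 to 0 and 0 to 29 between the 4n gates. Signs changed for genes that were not called. In 4n-whole against 2n-whole cells Ccne1 was at 0.020 after ComBat-seq and at -0.44 to 0.59 with a mouse left out, Ccne2 at -1.58 to 0.43 and E2f7 at -1.87 to 2.56. Between the 4n gates Ccnd1 was at -0.75 without the block, Ccne1 at -0.0028 with DESeq2, -0.036 after ComBat-seq and -0.99 to 0.73 with a mouse left out, and E2f7 at -1.88 to 0.38. In 4n-bottom against 2n-whole cells Ccnd1 was at -0.58 to 0.065, Ccne2 at -1.03 to 0.17 and E2f7 at -1.88 to 1.22. In 4n-top against 2n-whole cells Ccnd1 was at -0.39 to 0.21, Ccne2 at -1.72 to 0.12, E2f1 at -0.11 to 0.57 and E2f7 at -2.21 to 1.16. Depth limits the 8 genes with a mean under 1 CPM.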
